A study of Mus musculus with 12 samples.

Results

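The breakdown of the branched-chain amino acids in inguinal white adipose tissue (iWAT, the subcutaneous fat depot of the groin) was examined through 10 genes chosen by name: Bcat2, Bckdha, Bckdhb, Dbt, Bckdk, Ppm1k, Ivd, Mccc1, Hibadh and Acadsb. Each symbol had 1 identifier in the table of reads per gene, so 10 of the 54134 listed genes were taken, and all 10 were among the 15585 genes that passed the filter on low counts. RNA-seq was performed on iWAT of 12 male C57BL/6J mice fed a chow diet. An adeno-associated virus (AAV, serotype 8) was injected through the tail vein at 8 weeks of age, and carried GFP in 6 mice (AAV-GFP, here GFP mice) and mouse Notum in 6 (AAV-Notum, here Notum mice). The TBG promoter, which is active in liver, drove both inserts, so all 12 mice carried a virus and none was left uninjected. Tissue was taken 4 weeks later after a fast of 4 h. Notum encodes a secreted enzyme that inactivates Wnt proteins, and the comparison asks how iWAT differs when the liver makes more of it.

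Leucine, isoleucine and valine are broken down in mitochondria. An aminotransferase first removes the amino group, and the branched-chain keto acid dehydrogenase complex then commits the carbon skeleton to oxidation. A kinase switches this complex off by phosphorylation and a phosphatase switches it on again, after which separate enzymes carry each skeleton toward the citric acid cycle. Fat cells are known to express the pathway strongly.

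Sequencing gave 15266635 to 21618860 reads in genes per GFP mouse (median 18378579) and 14711113 to 17838229 per Notum mouse (median 17361386), and log2 depth did not differ past the threshold (exact permutation test, two-sided p = 0.307). The 10 genes had from 489 reads (Ppm1k) to 10099 reads (Ivd) in a mouse. Notum itself was read in iWAT at 0.0595 to 0.995 CPM (read counts scaled to the library size) in GFP mice and 0.457 to 29.3 CPM in Notum mice, with 29.3 CPM in mouse AAV-Notum-2032, 26.6 CPM in AAV-Notum-2041 and under 1 CPM in the rest. Both mice well above 1 CPM carry the Notum label. Fat cell markers were present in every mouse, with a mean over 10 markers of 11.8 to 12.6 log2 CPM in GFP and 11.5 to 12.6 log2 CPM in Notum mice. The mean of 12 lymphoid markers was -0.24 log2 CPM in AAV-GFP-2011 and -0.77 in AAV-GFP-2014, against 3.57 to 7.11 in the remaining animals. The mean of 7 muscle markers ranged from 0.17 to 6.38 log2 CPM in GFP and from -0.37 to 8.59 log2 CPM in Notum mice, the top value being that of AAV-Notum-2042. Markers of hepatocytes (7 genes) ranged from -0.80 to 8.22 log2 CPM in GFP and from -0.97 to 5.52 log2 CPM in Notum mice. They were 5.52 in AAV-Notum-2041 and 3.28 in AAV-Notum-2032, the mice with the most Notum reads. They were 8.22 in AAV-GFP-2013, 6.38 in AAV-GFP-2014 and 4.15 in AAV-GFP-2022, which had 0.995, 0.775 and 0.308 CPM of Notum. The part of liver RNA in the iWAT reads of Notum was not tested. In bulk tissue, fewer cells of a type and less RNA per cell cannot be told apart.

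The stretches of 250 bases that precede the RefSeq start site (GRCm38.p6) were taken for the members on which the comparisons below turn, which are the pair of genes whose ratio did not overlap between the groups (Bckdhb and Mccc1) and the kinase and phosphatase of the complex (Bckdk and Ppm1k). They are written 5′ to 3′ on the strand of the gene, and capitals mark CCAAT or its reverse complement ATTGG.
Bckdhb (chr9:83924887-83925136, plus strand): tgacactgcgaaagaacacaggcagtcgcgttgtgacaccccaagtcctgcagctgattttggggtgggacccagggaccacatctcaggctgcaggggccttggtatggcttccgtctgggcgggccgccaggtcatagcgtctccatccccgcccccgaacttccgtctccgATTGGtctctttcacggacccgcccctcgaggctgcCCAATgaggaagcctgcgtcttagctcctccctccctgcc
Mccc1 (chr3:36000679-36000928, minus strand): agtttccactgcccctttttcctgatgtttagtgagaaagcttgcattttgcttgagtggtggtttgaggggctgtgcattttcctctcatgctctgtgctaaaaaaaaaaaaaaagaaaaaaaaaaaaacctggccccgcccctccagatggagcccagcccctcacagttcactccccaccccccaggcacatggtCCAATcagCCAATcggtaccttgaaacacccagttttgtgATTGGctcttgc
Bckdk (chr7:127903823-127904072, plus strand): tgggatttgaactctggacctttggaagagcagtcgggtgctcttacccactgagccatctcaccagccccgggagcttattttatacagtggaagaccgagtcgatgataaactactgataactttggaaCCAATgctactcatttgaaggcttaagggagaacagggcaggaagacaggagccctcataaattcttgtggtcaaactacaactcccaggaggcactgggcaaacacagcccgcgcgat
Ppm1k (chr6:57535488-57535737, minus strand): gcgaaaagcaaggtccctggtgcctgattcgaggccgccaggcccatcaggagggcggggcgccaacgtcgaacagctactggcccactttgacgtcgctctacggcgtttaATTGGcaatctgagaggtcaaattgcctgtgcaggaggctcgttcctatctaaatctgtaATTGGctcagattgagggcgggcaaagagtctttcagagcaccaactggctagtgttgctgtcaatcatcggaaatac
A promoter sequence was found for 9 of the 10 members, the exception being Dbt. CCAAT, read on both strands, occurred in 6 of these 9 and in 33.8% of 32851 mouse promoters of the same length. Other motifs were counted in the same way. CACCC (52.0% of the 32851) was in Bcat2, Bckdhb, Bckdk, Ivd, Mccc1 and Hibadh. CCGCCC (32.7%) was in Bckdhb, Ppm1k, Mccc1, Hibadh and Acadsb, and AGGTCA (14.0%) in Bckdhb and Ppm1k. The matches given next are those of CCAAT. Ivd held 4 matches, Mccc1 held 3, Bckdhb and Ppm1k held 2 each, and Bckdk and Hibadh held 1 each. Bcat2, Bckdha and Acadsb held none, which says only that these letters are not in this window. Bcat2 and Bckdhb had 2 promoter entries each, of which only the first was read.

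None of the 10 genes differed between Notum and GFP mice past the threshold. The number with an adjusted p under 0.05 was 0 (edgeR quasi-likelihood test, Benjamini-Hochberg adjustment over all genes tested), where 0.0513% of all genes passed. That share rests on 8 genes, and the number was 493 by DESeq2 and 1 to 158 in edgeR with each mouse left out, the 158 being without AAV-GFP-2022. At an unadjusted p under 0.05 the number was again 0 by edgeR, DESeq2 and limma-voom, where 14.2% of all genes passed in edgeR. By direction, 0 members were higher against 4.64% of all genes, and 0 were lower against 9.54%. Log2 fold changes were below 0 for 8 members and above 0 for 2, where 48.8% of all genes were below 0. The median was -0.12 for the members and 0.0077 for all genes tested. Most members were correlated from mouse to mouse (below), so their directions are not independent. The values of the groups overlapped for 10 of 10 members, and groups without overlap were found for 1.09% of all genes.

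**Figure D1:**
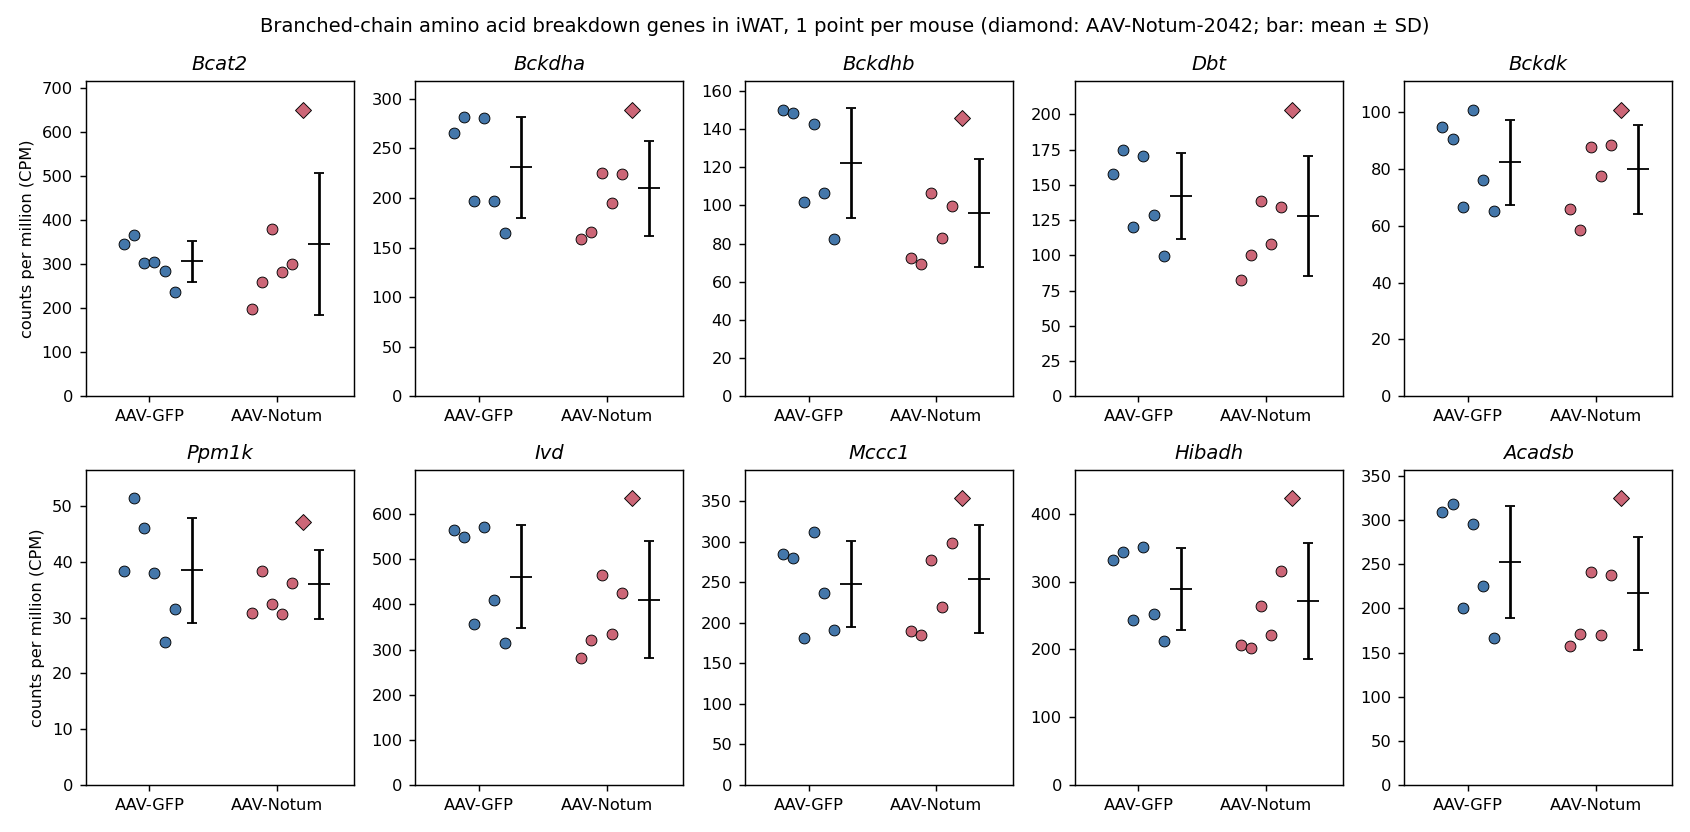
CPM (y axis, from 0) of the 10 breakdown genes in each of the 6 AAV-GFP (GFP) and 6 AAV-Notum (Notum) mice; each point is a mouse, the diamond is AAV-Notum-2042, and the bar gives the mean ± SD. The groups overlap in every panel, and the diamond is the highest point for 8 of the 10 genes.

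Bcat2 (ENSMUSG00000030826, chr7:45570153-45589711, plus strand, GRCm38) encodes the mitochondrial aminotransferase that starts the pathway. It was read at 236 to 365 CPM (median 303) in GFP and at 198 to 651 CPM (median 291) in Notum mice. The Notum group held both the lowest and the highest mouse, and its SD of 161 CPM was wider than the 46.0 CPM of the GFP group. The log2 fold change was 0.17 ± 0.25 (SE, n = 6 per group; edgeR adjusted p = 0.701). Without AAV-Notum-2042, the mouse with 651 CPM and the highest muscle markers, it was -0.11 (edgeR unadjusted p = 0.515). The part of muscle RNA in this value was not tested. Of the exon bases of Bcat2, 16.0% are shared with 0610005C13Rik on the opposite strand.

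Bckdhb (ENSMUSG00000032263, chr9:83925145-84124240, plus strand) is the beta subunit of the decarboxylase of the keto acid dehydrogenase complex and had the lowest log2 fold change of the 10. Its levels were 82.6 to 150 CPM (median 125) in GFP and 69.5 to 146 CPM (median 91.3) in Notum mice. AAV-Notum-2031 and AAV-Notum-2032 were below every GFP mouse, 5 of 6 Notum mice were below the GFP mean, and AAV-Notum-2042 was within the upper values of the GFP group. The log2 fold change was -0.34 ± 0.20 (SE, n = 6 per group), with a 95% interval of -0.79 to 0.10 and an edgeR adjusted p of 0.432. The unadjusted edgeR p was 0.117, and it was 0.0181 without AAV-Notum-2042 (log2 fold change -0.50) and 0.0490 without AAV-GFP-2022 (log2 fold change -0.43). In the other direction, the log2 fold change shrank to -0.04 with the lymphoid markers as a covariate (edgeR unadjusted p = 0.832), to -0.20 without AAV-GFP-2011 and AAV-GFP-2014 (edgeR unadjusted p = 0.398) and to -0.23 with RNA integrity in the fit (edgeR unadjusted p = 0.289).

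Bckdha (ENSMUSG00000060376, chr7:25629946-25658981, minus strand) encodes the alpha subunit of the same decarboxylase, the one the kinase phosphorylates. It was read at 165 to 282 CPM (median 231) in GFP and 158 to 289 CPM (median 209) in Notum mice, and the ranges nearly coincided. Its log2 fold change was -0.14 ± 0.18 (SE, edgeR adjusted p = 0.665). Bckdha is uncertain, because 61.7% of its exon bases are shared with B3gnt8 on the opposite strand. The second deposited table holds 21.2% of the Bckdha reads of the first, while 8 of the other members lie between 100.5% and 100.9% and Mccc1 at 92.1%.

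Dbt (ENSMUSG00000000340, chr3:116513070-116549981, plus strand) encodes the transacylase core of the complex. Its levels were 99.2 to 175 CPM (median 143) in GFP and 82.2 to 203 CPM (median 121) in Notum mice, with the lowest and the highest mouse both in the Notum group. The log2 fold change was -0.15 ± 0.21 (SE, edgeR adjusted p = 0.699).

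Bckdk (ENSMUSG00000030802, chr7:127904082-127910221, plus strand), the inactivating kinase, and Ppm1k (ENSMUSG00000037826, chr6:57506502-57535468, minus strand), the activating phosphatase, were among the 3 members of lowest mean level per length. Bckdk was read at 65.3 to 101 CPM (median 83.3) in GFP and 58.6 to 101 CPM (median 82.6) in Notum mice, with 3 of 6 Notum mice on each side of the GFP mean. Its log2 fold change was -0.04 ± 0.15 (SE, edgeR adjusted p = 0.887). Ppm1k was read at 25.6 to 51.4 CPM (median 38.2) in GFP and 30.7 to 47.1 CPM (median 34.4) in Notum mice. The Notum range lay inside the GFP range, and the log2 fold change was -0.10 ± 0.17 (SE, edgeR adjusted p = 0.754). The log2 ratio of Bckdk to Ppm1k was 1.11 ± 0.39 (SD, n = 6) in GFP and 1.14 ± 0.29 (SD, n = 6) in Notum mice (exact permutation test, two-sided p = 0.872). Both groups spread widely, from 0.53 to 1.57 and from 0.61 to 1.43.

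The enzymes after the complex act on separate skeletons. Their genes are Ivd (ENSMUSG00000027332, chr2:118861954-118882909, plus strand), Mccc1 (ENSMUSG00000027709, chr3:35959312-36000678, minus strand), Hibadh (ENSMUSG00000029776, chr6:52546228-52640389, minus strand) and Acadsb (ENSMUSG00000030861, chr7:131410601-131448944, plus strand). For leucine, Ivd (isovaleryl-CoA dehydrogenase) was read at 314 to 573 CPM (median 479.9) in GFP and 281 to 635 CPM (median 381) in Notum mice, with a log2 fold change of -0.17 ± 0.22 (SE, edgeR adjusted p = 0.677). Mccc1, the biotin-carrying subunit of methylcrotonyl-CoA carboxylase, which acts next, was read at 182 to 312 CPM (median 259) in GFP and 185 to 353 CPM (median 248) in Notum mice. Its log2 fold change of 0.04 ± 0.19 (SE, edgeR adjusted p = 0.931) was the nearest to 0 of the 10, with 3 of 6 Notum mice above the GFP mean.

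For valine, Hibadh (hydroxyisobutyrate dehydrogenase) was read at 212 to 351 CPM (median 292) in GFP and 202 to 423 CPM (median 242) in Notum mice, with a log2 fold change of -0.09 ± 0.20 (SE, edgeR adjusted p = 0.820). For isoleucine, Acadsb (short/branched-chain acyl-CoA dehydrogenase) was read at 166 to 319 CPM (median 261) in GFP and 157 to 325 CPM (median 204) in Notum mice, with a log2 fold change of -0.22 ± 0.21 (SE, edgeR adjusted p = 0.577). For both genes the Notum group held the lowest and the highest of the 12 mice. The 95% intervals of the 10 log2 fold changes all included 0, and the widest was that of Bcat2, from -0.36 to 0.71.

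The spread between mice exceeded the difference between group means. The highest mouse stood above the lowest by 1.72-fold for Bckdk to 3.28-fold for Bcat2. AAV-Notum-2042 was the highest mouse for 8 of the 10 members, the exceptions being Bckdhb (AAV-GFP-2011) and Ppm1k (AAV-GFP-2012). The lowest mouse was AAV-Notum-2031 for 5 members and AAV-Notum-2032 for 3. Without AAV-Notum-2042, the log2 fold changes of all 10 members were below 0, and only that of Bckdhb had an unadjusted p under 0.05 in edgeR. Without the pair AAV-GFP-2011 and AAV-GFP-2014, whose lymphoid markers were low, 5 members were below 0 and 5 above. With the lymphoid markers as a covariate, an alternative fit, 2 members were below 0 and 8 above, and 0 had an unadjusted p under 0.05 in edgeR.

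Per kilobase of exon, the place of Bckdha depended on the table. In the first table it was the highest member, at 122 ± 26.8 CPM per kb in GFP and 110 ± 25.2 CPM per kb in Notum mice (SD, n = 6), with the overlap named above. From the reads of the second table it was at 25.4 ± 3.74 and 23.6 ± 3.05 CPM per kb and ranked 7 of 10, below Bcat2, Ivd, Bckdhb, Dbt, Acadsb and Hibadh, so its level was not settled. The rest are given from the first table. Bcat2 was at 78.5 ± 11.8 and 88.5 ± 41.2 CPM per kb. Ivd, at 83.9 ± 20.9 and 74.6 ± 23.6 CPM per kb, was not ordered against Bcat2, which was above it in 6 of 12 mice. Bckdhb, Dbt, Acadsb and Hibadh came next, each above the following in 12 of 12 mice, from 67.6 ± 16.0 CPM per kb for Bckdhb to 28.4 ± 5.89 CPM per kb for Hibadh in GFP mice. Mccc1 and Bckdk lay close together, at 22.6 ± 4.88 and 22.3 ± 4.08 CPM per kb in GFP mice, and Mccc1 was the higher in 8 of 12, while in the second table Bckdk had the higher mean. Ppm1k was the lowest in 12 of 12 mice, at 6.39 ± 1.55 CPM per kb in GFP and 5.97 ± 1.04 CPM per kb in Notum mice.

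Most pairs of members were correlated from mouse to mouse. Across the 12 mice, the 36 pairs of log2 CPM without Ppm1k had Pearson's r of 0.717 to 0.988 and Spearman's rho of 0.678 to 1. All 36 had a permutation p under 0.05 after adjustment over the 45 pairs, the largest being 0.00437 for r and 0.0227 for rho. Among all pairs of genes tested, 10.6% had an r as high as the lowest of these 36. With the 2 mice farthest from the median left out, r was 0.679 to 0.987, and within groups of 6 it was 0.652 to 0.997 in GFP and 0.818 to 0.993 in Notum mice. The 9 pairs with Ppm1k had r of 0.318 to 0.581, of which 0 passed by r and 4 by rho after adjustment (permutation test), those with Bcat2, Bckdha, Dbt and Acadsb. Within groups they had r of 0.155 to 0.666 in GFP and 0.406 to 0.758 in Notum mice. With the 2 farthest mice left out these were 0.305 to 0.664. That the 2 sets of pairs differ was not tested.

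**Figure D2:**
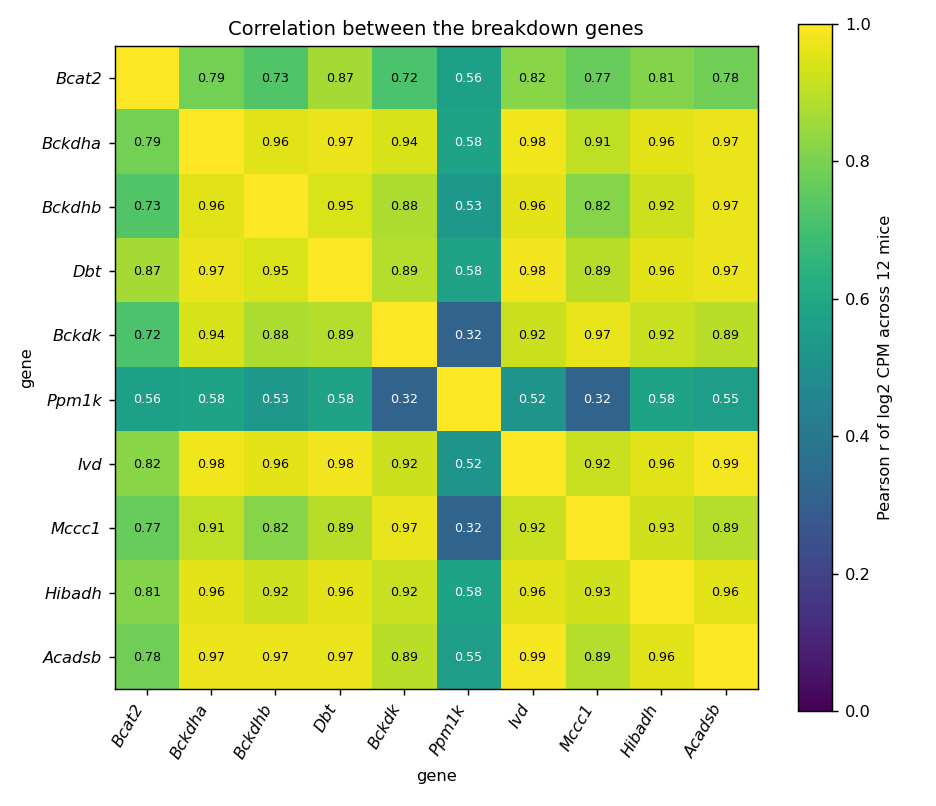
Pearson's r of log2 CPM across the 12 mice for each pair of the 10 breakdown genes (both axes list the genes; colour and number give r). The row of Ppm1k holds r of 0.318 to 0.581 and the other pairs 0.717 to 0.988, a difference that was not tested.

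Levels of the members were also set against the fat cell markers. Against the mean of 10 fat cell markers, r was 0.766 to 0.977 and rho 0.860 to 0.986 for the 9 members other than Ppm1k, and 0.459 and 0.559 for Ppm1k. After adjustment over 40 relations with 4 marker lists, the permutation p of r was at most 0.00173 for the 9 and 0.140 for Ppm1k. Without the 2 farthest mice, r was 0.688 to 0.984 for the 9. Muscle markers also moved with the members (r 0.659 to 0.842 over all 10), with the highest r for Bcat2 (0.842). Without the 2 mice farthest from the median of the muscle markers, these r fell to 0.402 to 0.721. Mitochondrial genes of other pathways gave r of 0.623 to 0.918 and genes of fatty acid oxidation 0.710 to 0.954 for the 9, and 0.192 and 0.344 for Ppm1k. Without the 2 farthest mice, these were 0.345 to 0.881 and 0.554 to 0.946 for the 9, the lowest being Bcat2 in the first range, and 0.056 and 0.294 for Ppm1k. The parts of fat cell and muscle content in the levels of the members were not tested.

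**Figure D3:**
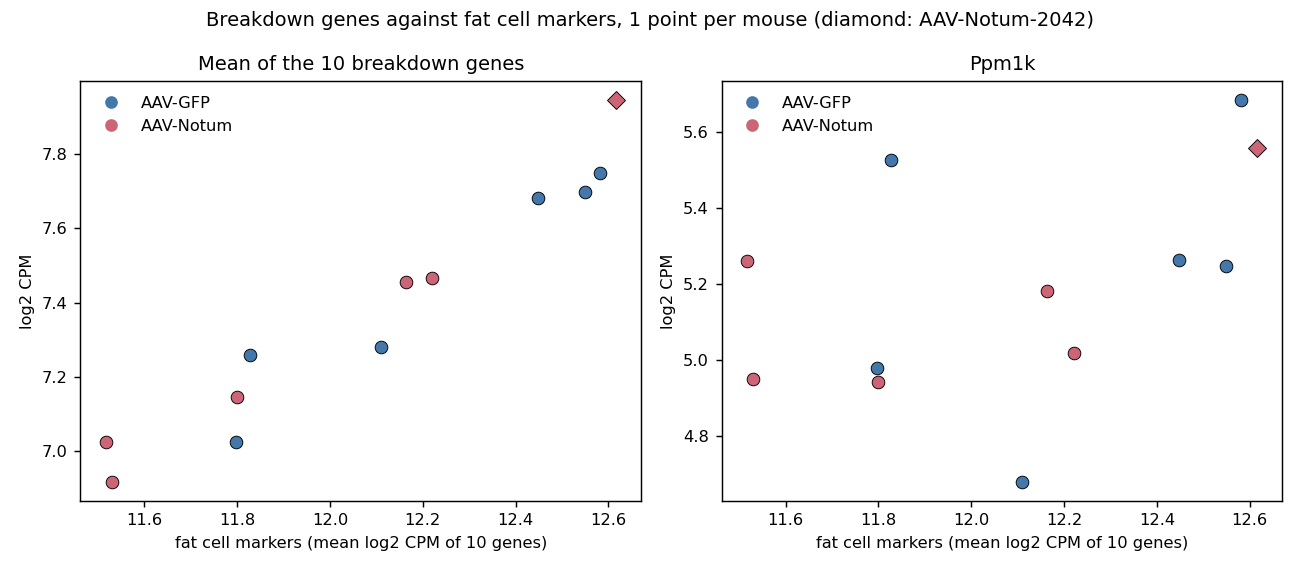
Mean log2 CPM of the 10 breakdown genes (left) and log2 CPM of Ppm1k (right) against the mean log2 CPM of 10 fat cell markers in each mouse; each point is a mouse and the diamond is AAV-Notum-2042. The left panel rises from the Notum mice at 11.5 to the diamond at 12.6, and in the right panel the points scatter (r = 0.459 for Ppm1k).

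With the fat cell markers as a covariate, an alternative fit, 3 of the 10 members had an unadjusted p under 0.05 in edgeR, where 16.0% of all genes did. Mccc1 was higher by 0.23 ± 0.054 on the log2 scale (SE) with an unadjusted p = 9.91e-04 and an adjusted p = 0.0828 in edgeR. Bcat2 was higher by 0.32 ± 0.14 (SE), with an unadjusted p = 0.0407 and an adjusted p = 0.289 in edgeR. Bckdhb was at -0.13 ± 0.059 (SE), with an unadjusted p = 0.0461 and an adjusted p = 0.303 in edgeR. The direction turned for 6 members, all to values above 0, and none of those had a p under 0.05 in edgeR. Among the unadjusted p-values, that of Bckdk was 0.0503 and those of the remaining members were 0.150 or more in edgeR.

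Because most members were correlated, the ratios between them were compared within each mouse, a comparison chosen after their values were seen. Of 45 pairs, 14 had an exact permutation p under 0.05 between the groups. Bckdhb took part in 8 of these 14, and 8 of its 9 pairs passed, where 14.1% of all genes did in their ratio to Bckdhb. These 9 pairs share Bckdhb and are not independent. Of the 36 pairs without Bckdhb, 6 passed, where 7.85% of all genes did in their ratios to the 9 members other than Bckdhb, and of the 9 with Ppm1k, 0 passed. These pairs share members too.

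The ratio of Bckdhb to Mccc1 had the smallest p of the 45. Its log2 value was -1.21 to -0.84 in GFP and -1.58 to -1.28 in Notum mice, with no overlap. The means were -1.03 ± 0.15 and -1.41 ± 0.10 (SD, n = 6), a difference of -0.38 (exact permutation test, two-sided p = 0.00216, the smallest the 924 assignments allow). In plain terms, Bckdhb had 0.493 times the CPM of Mccc1 in GFP mice and 0.378 times in Notum mice. This was the single pair of 45 without overlap, or 1 of the 9 with Bckdhb, and it was picked out after its values were seen. Among all genes, 1.01% had a ratio to Bckdhb without overlap between the groups.

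Within the decarboxylase itself, the log2 ratio of Bckdha to Bckdhb was 0.82 to 0.99 in GFP and 0.99 to 1.25 in Notum mice. These values rest on the first table, whose Bckdha reads are uncertain as given above. In the second table Bckdha lay below Bckdhb, with a log2 ratio of -1.44 to -1.10 in GFP and -1.35 to -0.96 in Notum mice, and the difference between group means was 0.20 (exact permutation test, two-sided p = 0.0325). In the first table the groups met only at AAV-GFP-2022 (0.994) and AAV-Notum-2042 (0.986). The means were 0.92 ± 0.063 and 1.14 ± 0.10 (SD, n = 6; exact permutation test, two-sided p = 0.00433), and 8.28% of all genes had a p under 0.05 in their ratio to Bckdha. The ratios of Bckdhb to Ivd and to Hibadh differed by -0.17 and -0.24 on the log2 scale (exact permutation p = 0.00433 for each). Adjusted over the ratios of all 15584 other genes to Bckdhb, the exact permutation p was 0.215 for Mccc1, 0.216 for Bckdha, Ivd and Hibadh, and 0.254 to 0.315 for the rest, and 0 of the 15584 passed. The ratios of Bckdhb to Bckdha and to Mccc1 kept an exact permutation p of at most 0.0325 in the 15 alternatives run for each. None of these held a covariate, so the part of lymphoid or fat cell content in the ratios was not tested. Values without overlap stay apart when a mouse is left out, so those runs could not change the result for Mccc1.

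**Figure D4:**
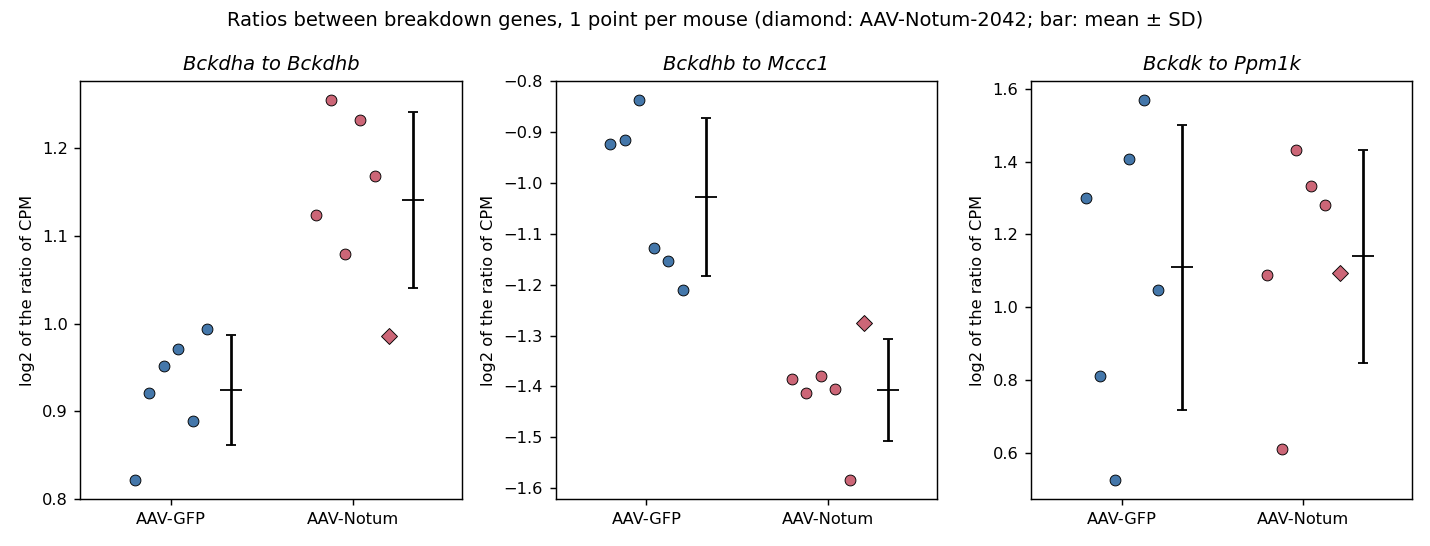
Log2 ratio of CPM in each mouse for Bckdha to Bckdhb, Bckdhb to Mccc1, and Bckdk to Ppm1k (y axes do not start at 0); each point is a mouse, the diamond is AAV-Notum-2042, and the bar gives the mean ± SD of 6 mice. The groups overlap for the outer panels and lie apart in the middle panel, at -1.21 to -0.84 in GFP and -1.58 to -1.28 in Notum.

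The other enzymes of the pathway were compared in the same way. Of 15 tested, 0 were higher and 1 was lower by edgeR with unadjusted p below 0.05 (4.64% and 9.54% of all genes). Log2 fold changes were below 0 for 12 of them (48.8% of all genes), and the median was -0.13. The 1 was Bcat1, the cytosolic aminotransferase. It was read at 5.50 to 14.5 CPM (median 10.9) in GFP and 4.42 to 6.90 CPM (median 5.43) in Notum mice, with 3 of 6 Notum mice below every GFP mouse. Its log2 fold change was -0.90 ± 0.25 (SE, edgeR unadjusted p = 0.00322, adjusted p = 0.160, exact permutation p = 0.0152). With the lymphoid markers as a covariate it was -0.56 (edgeR unadjusted p = 0.0338), and without AAV-GFP-2011 and AAV-GFP-2014 it was -0.62 (edgeR unadjusted p = 0.0280). Mccc2, the partner subunit of Mccc1, was at -0.21 ± 0.20 (SE, edgeR adjusted p = 0.575), and Dld, the shared last subunit of the dehydrogenase complexes, at 0.08 ± 0.20 (SE, edgeR adjusted p = 0.844). With the fat cell markers as a covariate, 3 of the 15 were higher and 1 was lower by an unadjusted p in edgeR, where 16.0% of all genes passed in either direction.

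**Figure D5:**
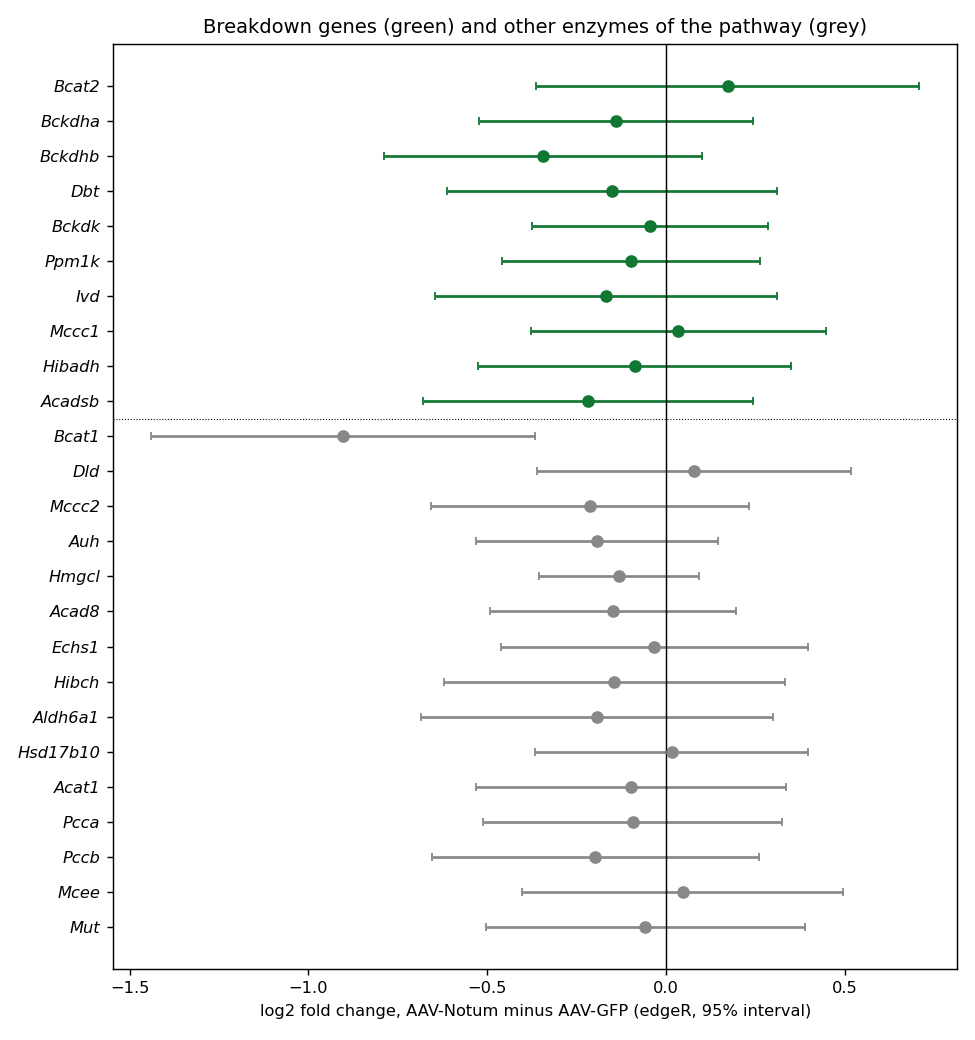
Log2 fold change of Notum minus GFP (x axis) for the 10 breakdown genes (green) and 15 other enzymes of the pathway (grey); points are edgeR estimates and bars 95% intervals. Only the bar of Bcat1 (-0.90) leaves out 0.

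Among 6 carriers of these amino acids, 1 was lower (9.54% of all genes) and 0 higher (4.64%) by edgeR with unadjusted p below 0.05. Slc7a8, a light chain of a neutral amino acid exchanger, was read at 14.96 to 53.5 CPM in GFP and 14.5 to 21.1 CPM in Notum mice, with a log2 fold change of -0.86 ± 0.27 (SE, edgeR unadjusted p = 0.00839, adjusted p = 0.214, exact permutation p = 0.0455). Without AAV-GFP-2011 and AAV-GFP-2014 it was -0.48 (edgeR unadjusted p = 0.0635), and with the lymphoid markers as a covariate -0.29 (edgeR unadjusted p = 0.150). Slc25a44, the mitochondrial carrier, was at -0.13 ± 0.14 (SE, edgeR adjusted p = 0.598). The 3 electron carriers of Ivd and Acadsb, Etfa, Etfb and Etfdh, had log2 fold changes of -0.17 to 0.02, and 0 passed.

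The pyruvate dehydrogenase complex is built and regulated like the branched-chain complex, so its genes were read beside it. Of 12 genes of the sister complexes, 1 was higher (4.64% of all genes) and 2 were lower (9.54%) by edgeR with unadjusted p below 0.05, and the groups did not overlap for 1 of them (1.09%). Pdk1, a kinase of pyruvate dehydrogenase, was read at 68.7 to 92.9 CPM in GFP and 105 to 142 CPM in Notum mice, with no overlap and a log2 fold change of 0.55 ± 0.094 (SE, edgeR unadjusted p = 7.04e-05, adjusted p = 0.0686, exact permutation p = 0.00216). Bckdk, its counterpart in the branched-chain complex, was at -0.04 ± 0.15. Pdk4 (-0.55) and the phosphatase Pdp1 (-0.27) were those lower (edgeR adjusted p = 0.312 and adjusted p = 0.347). Their unadjusted p (edgeR, or the tool of the alternative) stayed under 0.05 in 16 of 23 alternatives for Pdk4 and in 6 of 23 for Pdp1, against 23 of 23 for Pdk1. With the lymphoid markers as a covariate, Pdp1 was at -0.16 (edgeR unadjusted p = 0.255) and Pdk4 at -0.54 (edgeR unadjusted p = 0.0552). Of 5 transcriptional regulators linked to these genes or to fat cells, Esrra was higher by 0.28 ± 0.087 (SE, edgeR unadjusted p = 0.00742, adjusted p = 0.208, exact permutation p = 0.00866), and Klf15, known to act on branched-chain amino acid genes, was at -0.24 ± 0.19 (SE, edgeR adjusted p = 0.515).

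Marker genes of other cells in the depot were read beside the members. All 12 lymphoid markers had log2 fold changes above 0, from 0.76 to 1.15, and 0 had an unadjusted p under 0.05 in edgeR. Their mean had a median of 4.84 log2 CPM in GFP and 6.53 in Notum mice, and the groups overlapped. All 7 muscle markers were also above 0, from 1.23 to 1.58, and 0 passed, while the median of their mean was 3.39 log2 CPM in GFP and 1.93 in Notum mice. That mean was 8.59 in AAV-Notum-2042, against -0.37 to 5.83 in the other Notum mice. Of 6 macrophage markers, 2 were lower by edgeR with unadjusted p below 0.05 and 0 were higher. Cd163, a scavenger receptor of tissue macrophages, was read at 46.9 to 81.9 CPM in GFP and 27.2 to 46.1 CPM in Notum mice, with no overlap. Its log2 fold change was -0.94 ± 0.16 (SE, edgeR unadjusted p = 7.59e-05, adjusted p = 0.0696, exact permutation p = 0.00216), and Mrc1 was at -0.40. Of 6 progenitor markers, Pdgfra (-0.49), Dcn (-0.39) and Col1a1 (-0.52) were lower, of 5 endothelial markers Tie1 (-0.42), of 10 fat cell markers Plin4 (-0.65) and of 7 hepatocyte markers Alb (-2.83, exact permutation p = 0.108) and Serpina1a (-2.80, exact permutation p = 0.258), each by the same unadjusted p in edgeR, where 9.54% of all genes were lower and 4.64% higher. Of 23 alternatives, that p held in 15 for Mrc1, 14 for Plin4, 20 for Tie1, 22 for Dcn and 12 for Alb, and for Serpina1a in 12 of 22. With the lymphoid markers as a covariate, Tie1 was at -0.14 (edgeR unadjusted p = 0.229) and Dcn at -0.25 (edgeR unadjusted p = 0.117). Without AAV-GFP-2013, Alb was at -1.20 and Serpina1a at -1.15. Some markers of these lists went the other way, with log2 fold changes above 0. They were 2 of 6 macrophage markers (Csf1r at 0.26 and Cd68 at 0.12) and 1 of 6 progenitor markers (Dpp4 at 0.65). So were 1 of 5 endothelial markers (Pecam1 at 0.07) and 2 of 10 fat cell markers (Cfd at 0.16 and Fabp4 at 0.02). Of 6 brown fat markers, Cidea was higher by 1.09 (edgeR unadjusted p = 0.0143, adjusted p = 0.242). Log2 fold changes were above 0 for 5 of these 6, and Elovl3 was at -1.70 (edgeR adjusted p = 0.484). The list means overlapped between the groups, at 5.26 to 6.31 log2 CPM in GFP and 5.43 to 6.03 in Notum mice for macrophages, 6.35 to 7.45 and 6.73 to 7.05 for progenitors, 6.27 to 7.01 and 6.15 to 6.70 for endothelium, and 0.90 to 3.47 and 1.75 to 4.78 for brown fat. The parts of these cells in the levels of the members were not tested.

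The genes whose log2 CPM most resembled the mean of the 10 members across the 12 mice, outside the lists, were Lyplal1 (r = 0.991), Car3 (r = 0.982), Tbc1d20 (r = 0.978), Cluh (r = 0.978) and Asns (r = 0.975). Their log2 fold changes ran from -0.29 for Asns to -0.04 for Tbc1d20, with edgeR adjusted p of 0.524 or more. These r are descriptions, with no test, over mice whose fat cell markers also vary.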

How the data were processed

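RNA-seq libraries were single-end reads of 50 bp, mapped by the authors to mm10 with STAR 2.3.1; the counting program and its use of strand are not given in the sources used here. The first table, as deposited, holds raw counts per gene, which were used for the main tests. The second, as deposited by the authors, holds log2 values of reads divided by a size factor plus 1, and undoing this gave whole reads (within 0.02) for 100% of the values. The low-count filter was filterByExpr (at least 10 counts in enough mice, 15 in all), and TMM factors and the two-sided quasi-likelihood test came from edgeR 4.0.16 (R 4.3.3), whose p-values were adjusted by Benjamini-Hochberg over every gene tested. CPM use the TMM library sizes, log2 CPM a prior count of 2. Exact permutation tests ran over 924 assignments; correlations used 100000 permutations. The code was tested on simulated data. Alternatives used DESeq2 1.42.0, limma 3.58.1, other filters, size factors and covariates, and each mouse left out. Named genes are the 10 members, listed genes with an unadjusted p under 0.05 or needed to describe a pathway step, Notum, and the 5 most alike genes. Lists of marker genes are given as means over the list. Members and lists were chosen with earlier results of these data known. The ratios other than Ppm1k to Bckdk were chosen after seeing the data. RNA integrity numbers were 5.7 to 7.6 (AAV-GFP) and 6.9 to 7.4 (AAV-Notum), and RNA of AAV-GFP-2012 was isolated on another day. Each mouse is an animal of its own. Positions are from GENCODE vM21 (GRCm38).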

Additional observations from a re-analysis of the deposited data

How the results depend on the processing

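The number of genes called over all genes was 8, and it was 493 with DESeq2, 14 with RLE size factors, 5 and 15 with filters of 1 count in all mice together and of 10 counts in each mouse, 4 with lymphoid markers as a covariate, 58 with fat cell markers as a covariate, 1 without both AAV-GFP-2011 and AAV-GFP-2014, 4 with limma on the normalized table, and 1 to 158 with each mouse left out. With fat cell markers as a covariate, 2 members were higher and 1 lower by edgeR with unadjusted p below 0.05, and of 15 other pathway enzymes 3 were higher and 1 lower, where 16.0% of all genes passed in either direction. With each mouse left out, members lower numbered 0 to 1, the 1 being Bckdhb without AAV-GFP-2022 or AAV-Notum-2042.
Of 230 values of the 10 members under alternatives, 203 kept their direction and 27 reversed. Log2 fold changes reversed with a covariate for RNA integrity for Bckdk (0.025) and Hibadh (0.00024). With lymphoid markers as a covariate, those of Bckdha (0.14), Dbt (0.12), Bckdk (0.20), Ivd (0.17), Hibadh (0.20) and Acadsb (0.10) reversed. With fat cell markers as a covariate, the same members were at 0.051 (Bckdha), 0.053 (Dbt), 0.12 (Bckdk), 0.059 (Ivd), 0.11 (Hibadh) and 0.0074 (Acadsb). Without AAV-GFP-2011 and AAV-GFP-2014, reversed values were 0.096 (Bckdk), 0.0069 (Ivd) and 0.047 (Hibadh). With each mouse left out, values ran from -0.11 to 0.29 for Bcat2, from -0.12 to 0.031 for Bckdk, from -0.19 to 0.0023 for Ppm1k and from -0.083 to 0.11 for Mccc1, and the difference in the log2 ratio of Ppm1k to Bckdk ran from -0.14 to 0.086. The cause of these reversals was not tested, and none had a p under 0.05. The log2 ratios of Bckdhb to Bckdha and to Mccc1 kept their direction and an exact permutation p under 0.05 in all 15 alternatives run for each, added after seeing the data. These left mice out, used the normalized table or changed the prior count, and none held a covariate.
With 6 mice per group, the 95% intervals of the members reached from -0.79 to 0.71 on the log2 scale, so differences within an interval were not resolved. No paired analysis was possible because the groups share no mouse numbers.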
